A study of Mus musculus with 7 samples.

Results

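Islet RNA-seq was examined for 10 transcription factors that establish and keep β-cell identity, Pdx1, Mafa, Nkx6-1, Nkx2-2, Neurod1, Pax6, Isl1, Foxa2, Insm1 and Rfx6. The members were named by gene symbol, looked up by Ensembl identifier in GENCODE M21, and all 10 were found among the 21899 genes of the count files. The samples were pancreatic islets of adult second-generation (F2) C57BL/6J males. Their fathers (F1) were born to dams injected in late pregnancy with dihydrotestosterone (androgen exposure, AE) or with the oil and benzyl benzoate vehicle alone (control), and had been mated with unrelated wild-type females. The F2 males themselves were not injected, and the age at islet isolation and the number of animals per library are not given in the sources used here. The labels list 3 control-F2 (Ctrl) and 4 AE-F2 (HA, hyperandrogenism) samples. The values below are from control-F2 replicate 1 (the control library) and AE-F2 replicate 4 (the AE library), and the other 5 samples were not analysed here.

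With 1 library per group there was no replicate spread to compare with, so no test of the conditions was made and no difference below has a replicate check. A ratio is given as log2 of AE-F2 over control-F2 with a 95% Clopper-Pearson counting interval, which covers counting error only and leaves out the variation between animals and preparations. The control library held 16285888 estimated counts and the AE library 21278513. CPM are counts scaled to library size with TMM factors, which were 1.001 and 0.999. Averaging the 2 libraries, 13627 genes reached 10 counts and were kept. In islet RNA, fewer β-cells and less RNA per β-cell cannot be told apart.

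β-cells are made and maintained by a small network of DNA-binding proteins that bind the insulin genes, the glucose sensing genes and each other's genes. Homeodomain proteins (Pdx1, Nkx6-1, Nkx2-2, Pax6, Isl1) act there beside the basic leucine zipper protein MafA, the basic helix-loop-helix protein NeuroD1, the forkhead protein Foxa2, the zinc finger protein Insm1 and the winged-helix protein Rfx6. MafA and Nkx6-1 mark β-cells among the adult endocrine cells and Pdx1 is also present in δ-cells, whereas the others are used by several endocrine cell types. Reduced Pdx1, MafA or Nkx6-1 is a known feature of failing β-cells.

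The start-site regions of 4 members are shown because Pdx1 is among the genes the study centred on, Nkx6-1 had the lowest ratio between the libraries, and Isl1 and Rfx6 were the members not lower in the AE library. Each is the 250 bases before the RefSeq start (GRCm38.p6), 5′ to 3′ on the gene's strand, with every CpG, the dinucleotide that DNA methylation acts on, in capitals. Pdx1 lies at chr5:147269847-147270096 on the plus strand, Nkx6-1 at chr5:101664712-101664961 on the minus strand, Isl1 at chr13:116309689-116309938 on the minus strand and Rfx6 at chr10:51685268-51685517 on the plus strand.
Pdx1: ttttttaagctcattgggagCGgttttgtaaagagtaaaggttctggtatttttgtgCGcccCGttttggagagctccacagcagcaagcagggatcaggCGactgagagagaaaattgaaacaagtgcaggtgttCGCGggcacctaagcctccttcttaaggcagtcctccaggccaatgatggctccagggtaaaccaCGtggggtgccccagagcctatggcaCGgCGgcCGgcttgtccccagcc
Nkx6-1: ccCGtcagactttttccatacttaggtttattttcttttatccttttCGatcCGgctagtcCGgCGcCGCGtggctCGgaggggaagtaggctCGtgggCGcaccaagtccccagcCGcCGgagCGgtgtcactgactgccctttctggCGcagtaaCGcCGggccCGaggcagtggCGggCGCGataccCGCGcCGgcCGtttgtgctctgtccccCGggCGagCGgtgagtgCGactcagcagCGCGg
Isl1: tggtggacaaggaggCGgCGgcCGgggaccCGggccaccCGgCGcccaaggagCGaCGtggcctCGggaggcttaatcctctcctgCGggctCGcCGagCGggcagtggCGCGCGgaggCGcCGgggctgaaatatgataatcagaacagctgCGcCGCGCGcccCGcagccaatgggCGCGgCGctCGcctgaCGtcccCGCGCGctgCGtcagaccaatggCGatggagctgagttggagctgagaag
Rfx6: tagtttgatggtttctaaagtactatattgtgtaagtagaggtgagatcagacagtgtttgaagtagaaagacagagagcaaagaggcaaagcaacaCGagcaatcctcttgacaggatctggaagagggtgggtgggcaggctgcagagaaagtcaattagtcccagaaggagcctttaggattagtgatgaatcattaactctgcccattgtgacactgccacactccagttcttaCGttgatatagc

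The Pdx1 region holds 10 CpG, more than 62.2% of the 32851 start-site regions of that length in the table. Nkx6-1 holds 30 and Isl1 33, more than 94.1% and 96.0% of them, whereas Rfx6 holds 2, more than 18.8%. The median of all regions was 6 CpG, and that of the 11 regions of the 8 members with an entry was 15. The letters TAAT, the core of many homeodomain binding sites, were searched on both strands (TAAT or ATTA). They occurred 3 times in the Rfx6 region, 2 times in that of Isl1 and not in those of Pdx1 and Nkx6-1, and 54.9% of all regions hold them at least once. Methylation was not measured in these files. CpG number is sequence context only, and the regions were not chosen as sites where the study measured methylation.

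All 10 factors were well expressed. Per length, as CPM per kilobase of exon in GENCODE M21, they took the same order in both libraries: Mafa, Nkx6-1, Pdx1, Insm1, Neurod1, Nkx2-2, Foxa2, Isl1, Rfx6 and Pax6. Mafa stood at 173 CPM per kilobase in the control library and 161 in the AE library. Nkx6-1 followed at 171 and 143, so that it was level with Mafa in the control library and below it in the AE library. Pdx1 had 101 and 89.6, and Pax6, the lowest, 25.6 and 23.3. Pax6 has 26 annotated transcripts and 11694 bases of exon in all, so its level per length depends on which of them islets use. The lowest member by CPM without regard to length, Foxa2, still exceeded 88.5% of the genes kept in the control library and 87.4% in the AE library. No member had a fractional count, which arises where reads are split over look-alike genes, whereas 8.56% and 9.28% of all values were fractional.

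**Figure D1:**
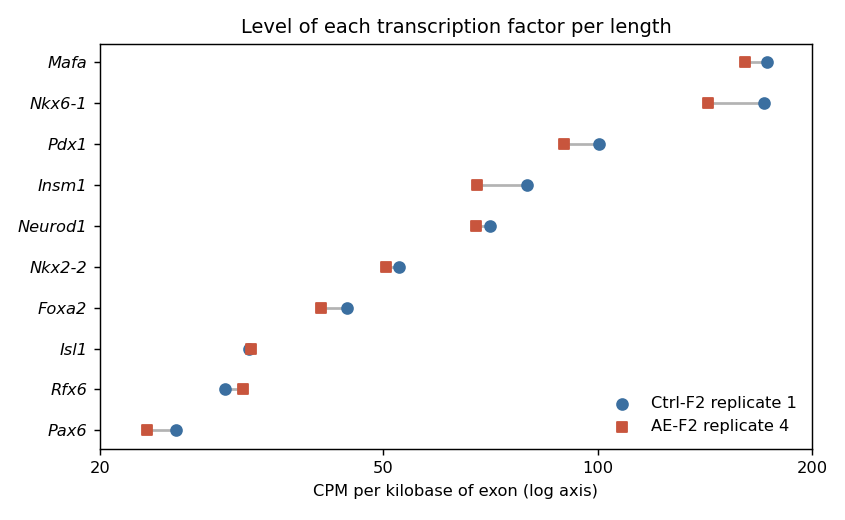
Level of each of the 10 transcription factors in CPM per kilobase of exon (log axis) in control-F2 replicate 1 (circles) and AE-F2 replicate 4 (squares), 1 library each and no error bar. The order from Mafa to Pax6 is the same in both libraries, and the widest gaps between them are those of Nkx6-1 (171 and 143) and Insm1 (79.7 and 67.6).

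Between the libraries, 8 of the 10 factors were lower in the AE library and 2 were higher, with a median log2 ratio of -0.11 against 0.00072 over all 13627 genes kept. Of all genes kept, 49.8% were lower. The members are abundant, with means between 1889 and 9152 counts, so the 3471 genes averaging 1000 counts or more (the abundant genes) are the closer background: 56.2% of these were lower and their median was -0.02. For 7 of the 10 members the counting interval lay below equality and for 0 above it. Below equality lay 13.4% of all genes kept and 24.9% of the abundant genes, and above it 13.4% and 16.3%. No member reached 2-fold, where 0.646% of genes kept were at least 2-fold lower and 3.20% at least 2-fold higher. A difference of at least 1.1-fold was found downward for 4 members (Nkx6-1, Insm1, Pdx1 and Pax6) and upward for 0, against 15.0% and 8.04% of the abundant genes. The members were chosen by symbol with earlier results known, so these shares are descriptions.

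Among the 3 factors tied most closely to β-cells, each was lower in the AE library with its whole counting interval below equality. Nkx6-1 (ENSMUSG00000035187), which keeps β-cells from taking on the α-cell programme, had 8770 counts in the control library and 9533 in the deeper AE library, or 538 and 449 CPM. Its log2 ratio was -0.26 (interval -0.30 to -0.22), the lowest of the 10, and 3.8% of the abundant genes had a lower one. Pdx1 (ENSMUSG00000029644), which directs pancreas formation and activates insulin transcription, had 3541 and 4109 counts. In CPM these were 217 and 193, with a log2 ratio of -0.17 (-0.23 to -0.10), and 10.9% of these abundant genes had a lower ratio. Mafa (ENSMUSG00000047591), an activator of insulin genes in mature β-cells, had 7729 and 9388 counts, or 474 and 442 CPM. Its log2 ratio was -0.10 (-0.14 to -0.06), and 22.2% of the abundant genes had a lower one. Mafa is the most GC-rich of the 10, and its direction turned when trends with GC content and length were removed, to 0.10 with the trend of all genes kept and to 0.06 with that of the abundant genes.

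The 7 factors shared by several endocrine cell types ran from -0.24 to 0.08, with a median log2 ratio of -0.07 against -0.17 for the 3 β-cell factors. The difference between these groups was not tested. Insm1 (ENSMUSG00000068154), a repressor needed for endocrine differentiation and for the mature secretory state, had the second lowest log2 ratio. It had 4028 counts (247 CPM) in the control library and 4455 (210 CPM) in the AE library, a log2 ratio of -0.24 (-0.30 to -0.17), which became -0.11 with either GC and length trend removed. Pax6 (ENSMUSG00000027168), a paired-box and homeodomain activator of hormone genes, had 4885 and 5783 counts, or 300 and 272 CPM, and a log2 ratio of -0.14 (-0.19 to -0.08). Foxa2 (ENSMUSG00000037025), which opens chromatin at pancreatic enhancers, had the fewest counts, 1718 and 2060. These gave 105 and 96.9 CPM and a log2 ratio of -0.12 (-0.21 to -0.03). In these 3 genes, too, the interval did not reach equality, but that of Foxa2 did (-0.08, -0.17 to 0.01) once the GC and length trend of the abundant genes was removed.

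Neurod1 (ENSMUSG00000034701), a partner of Pdx1 at the insulin promoter, had 3146 counts (193 CPM) in the control library and 3908 (184 CPM) in the AE library. Its log2 ratio of -0.07 had an interval from -0.14 to -0.0008, which barely left out equality. It took in equality under 3 of the alternatives, whereas with the GC and length trends removed the ratio was -0.23 (-0.30 to -0.16) for all genes kept and -0.12 (-0.19 to -0.05) for the abundant genes. In GENCODE M21, 201 exonic bases of Neurod1 are shared on the same strand with Cerkl, which had 162 and 187 counts. Nkx2-2 (ENSMUSG00000027434), which holds β-cells to their fate by repressing other endocrine programmes, had 2471 and 3087 counts, or 152 and 145 CPM. Its log2 ratio was -0.06 with an interval that included equality (-0.14 to 0.02), and -0.10 (-0.18 to -0.03) with the GC and length trend of all genes kept removed. With that of the abundant genes removed, Nkx2-2 was at -0.02 (-0.10 to 0.05). Its antisense partner Nkx2-2os overlaps it over 278 exonic bases and was not used here. Whether the counting used strand is not given in the sources, so reads from the shared bases cannot be told apart.

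Isl1 and Rfx6 were the members not lower in the AE library. Isl1 (ENSMUSG00000042258), a LIM-homeodomain factor of all islet endocrine cells, had 2089 counts (128 CPM) in the control library and 2747 (129 CPM) in the AE library. Its log2 ratio of 0.01 ran from -0.07 to 0.10, so no difference was detectable at this depth. With the GC and length trend of all genes kept removed it was -0.09 with an interval below equality (-0.17 to -0.009), and with that of the abundant genes -0.006. Rfx6 (ENSMUSG00000019900), which is required for islet cell formation and for insulin release in adult β-cells, had 1963 and 2705 counts, or 120 and 127 CPM. Its log2 ratio of 0.08, the highest of the 10, ran from -0.004 to 0.17. With scaling by upper quartiles, and by totals without Ins1, Ins2, Gcg and the mitochondrial genes, the Rfx6 interval lay above equality. The Rfx6 ratio was -0.02 with the trend of all genes kept removed and 0.06 with that of the abundant genes.

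**Figure D2:**
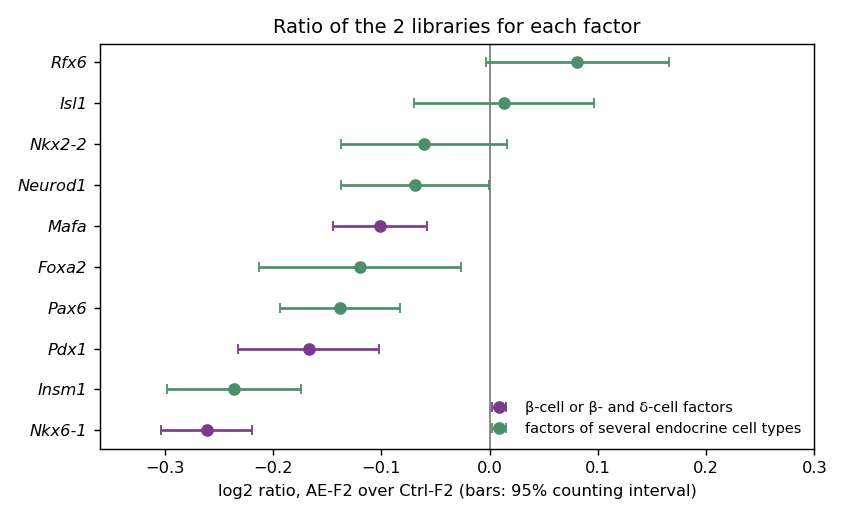
log2 ratio of AE-F2 replicate 4 over control-F2 replicate 1 for the 10 factors (points) with the 95% counting interval (bars), coloured by whether the factor is tied to β-cells (or β- and δ-cells) or shared by several endocrine types. The 7 intervals from Nkx6-1 (-0.26) to Neurod1 (-0.07) lie below 0, and those of Nkx2-2, Isl1 and Rfx6 include 0.

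The balance among the factors does not depend on scaling between libraries, although it does on trends with GC content and length. The 10 together had 40340 counts in the control library and 47775 in the AE library, 2474 and 2248 CPM, a ratio of 0.909. Nkx6-1 took 21.7% of them in the control library (95% Wilson interval 21.3 to 22.1) and 19.95% in the AE library (19.6 to 20.3). Insm1 took 9.99% (9.70 to 10.3) and 9.32% (9.07 to 9.59). Toward the other side, Rfx6 took 4.87% (4.66 to 5.08) and 5.66% (5.46 to 5.87), and Isl1 5.18% (4.97 to 5.40) and 5.75% (5.54 to 5.96). Pdx1 took 8.78% (8.51 to 9.06) and 8.60% (8.35 to 8.86), and Pax6 12.1% in both. Pdx1 stood at 0.891 of its control level and the 10 together at 0.909, but with the GC and length trend of all genes kept removed Pdx1 had the lowest log2 ratio of the 10 (-0.27, against a median of -0.14), and Insm1 (-0.11) lay above that median.

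**Figure D3:**
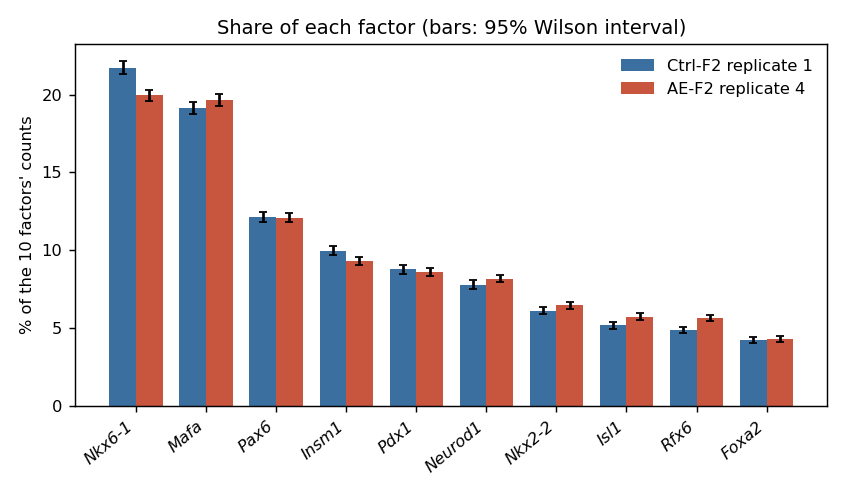
Share of each factor in the summed counts of the 10 factors, in percent, for control-F2 replicate 1 and AE-F2 replicate 4 (bars, with 95% Wilson intervals that cover counting error only). Nkx6-1 and Insm1 take smaller shares in the AE library (19.95% and 9.32%) than in the control library (21.7% and 9.99%), and Isl1 and Rfx6 take larger ones.

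Taken by pairs, the ratio of the counts of 1 factor to another within a library differed between the libraries beyond counting error (95% conditional interval of the odds ratio) for 27 of the 45 pairs, where the intervals are not adjusted for the number of pairs. Among all pairs of the 1529 genes within the members' range of mean counts, 52.2% did so by a Wald interval, which also called 27 of the members' pairs (60%), so a shifted pair is common at this abundance. Without any correction the widest shift was that of Nkx6-1 to Rfx6, with 4.47 Nkx6-1 counts for each Rfx6 count in the control library and 3.52 in the AE library, a log2 change of -0.34 (-0.44 to -0.25). Insm1 to Rfx6 went from 2.05 to 1.65 (-0.32, -0.42 to -0.21). Pdx1 to Rfx6 went from 1.80 to 1.52 (-0.25, -0.35 to -0.14). Pdx1 to Nkx6-1 went the other way, from 0.404 to 0.431 (0.09, 0.02 to 0.17). These shifts moved when GC and length trends were removed. With the GC and length trend of all genes kept removed, 23 pairs differed beyond counting error, and 19 with that of the abundant genes. With the trend of all genes kept removed, Nkx6-1 to Rfx6 was -0.19, Pdx1 to Rfx6 -0.24, and Insm1 to Rfx6 -0.09 (-0.19 to 0.02). Wider than these was then Pdx1 to Mafa, at -0.36, which had been -0.07 with an interval that included no change (-0.14 to 0.01). Pdx1 to Nkx6-1 turned to -0.05 (-0.13 to 0.03) there, and was 0.03 (-0.05 to 0.11) with the trend of the abundant genes. With the latter trend, Nkx6-1 to Rfx6 was -0.24, Pdx1 to Rfx6 -0.21 and Pdx1 to Mafa -0.21. Insm1 to Rfx6 then stayed below no change (-0.17, -0.28 to -0.07).

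Insulin counts were used as a rough reference for β-cell RNA. The insulin genes are themselves targets of these factors, so this reference is not independent of them. Ins1 and Ins2 together made up 17.7% of all counts in the control library and 17.5% in the AE library. For each 1000 insulin counts the 10 factors had 13.98 counts in the control library and 12.9 in the AE library. Nkx6-1 had 3.04 and 2.56, Mafa 2.68 and 2.53, and Pdx1 1.23 and 1.11. Scaled to the sum of 11 β-cell markers that are not transcription factors, which is dominated by the insulin genes and Iapp, the ratios of the members were nearly those given above, with -0.17 for Pdx1 and -0.26 for Nkx6-1. The median log2 ratio of the same 11 markers was -0.09, close to the -0.11 of the 10 factors.

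Genes that these factors are known to act on, fixed as a list of general knowledge, were mostly lower too. Without Mafa, which is itself one of the factors, 22 of the 29 target genes were lower and 7 higher, with a median log2 ratio of -0.10, and the interval lay below equality for 19 and above it for 6. Of the abundant genes, 56.2% were lower, with 24.9% below and 16.3% above equality. This background is not matched in depth, since many targets have far more counts and small ratios then leave equality. The log2 ratio of Chga, 0.01 (0.006 to 0.02), was among those above it. The shares of calls can therefore not be compared directly. The summed level of the list was 1.00 times that of the control library and was set by its most abundant genes, which differed in both directions. Ins2 had 128295 and 123879 CPM (log2 ratio -0.05), Ins1 48710 and 51033 (0.07), the β-cell peptide Iapp 18110 and 21216 (0.23) and the granule protein Chga 14809 and 14952 (0.01). Reads of Ins1 and Ins2 can be divided between these similar genes, so their opposite signs are uncertain. The largest differences among targets averaging 100 counts or more were those of Npas4, an activity-dependent transcription factor (60.8 and 10.5 CPM, log2 ratio -2.52), Cox6a2, a respiratory chain subunit (22.0 and 14.9, -0.56), and Rgs16, a regulator of G protein signalling (60.9 and 44.8, -0.44). Npas4 is also an immediate early gene, and without it the median of the remaining 28 target genes was -0.10.

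The partners and cofactors of the members, such as chromatin remodellers and homeodomain partners, had a median log2 ratio of -0.02, with 12 of 19 lower and 7 higher. Their intervals lay below equality for 4 and above it for 1, shares near those of the abundant genes (24.9% and 16.3%) or under them. Mlxipl, the glucose-responsive factor ChREBP, was the most abundant, with 313 and 269 CPM (log2 ratio -0.22, interval -0.27 to -0.16). Smarca4, the Brg1 remodeller that binds Pdx1, had 200 and 193 CPM (-0.05, interval including equality), Spop 132 and 135 and Meis2 117 and 120. Kmt2d, a histone methyltransferase (117 and 104 CPM, -0.17), and Oga, the enzyme that removes O-GlcNAc from proteins (124 and 111, -0.15), were also lower beyond counting error.

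Of 37 other endocrine transcription factors 31 were kept, and 23 of these were lower and 8 higher, with a median log2 ratio of -0.08. The interval lay below equality for 11 and above it for 3, beside 13.4% each way among all genes kept and 24.9% and 16.3% among the abundant genes. Vdr, the vitamin D receptor, had 318 and 269 CPM (-0.24), while Xbp1 (335 and 333 CPM) and St18 (155 and 156) hardly differed. The largest differences were those of Nr4a1 (90.9 and 41.9 CPM, -1.12), Mnx1 (21.5 and 16.1, -0.41) and Scrt1 (33.8 and 25.6, -0.40). Mnx1 is a homeodomain factor of β-cells and Scrt1 a zinc finger repressor of endocrine cells, whereas Nr4a1 is an immediate early gene. Without Nr4a1 the median was -0.08.

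Transcription factors of the other endocrine cells lay mostly on the other side. Of 8 factors of α-, δ-, PP and ε-cells 6 were higher and 2 lower in the AE library, with a median log2 ratio of 0.10. Irx2, an Iroquois homeodomain factor of α-cells, had 15.1 and 17.3 CPM (0.19, -0.04 to 0.43). Etv1, the most abundant of the 8, had 74.4 and 72.7. Of 12 factors of progenitors, ducts and acinar cells 9 were kept and these 9 were all lower, with a median of -0.25 and 2 intervals below equality, those of Bhlha15 (-0.23) and Klf4 (-1.04), the latter also responsive to stress. Below equality lay 13.4% of all genes kept and 24.9% of the abundant genes, so 2 of 9 is near the background. Tead1 (69.9 and 69.7 CPM) and Gata6 (13.3 and 12.2) were within counting error. Ptf1a, Onecut1 and Rbpjl had at most 6 counts in either library. Whether the members differ from these lists was not tested.

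**Figure D4:**
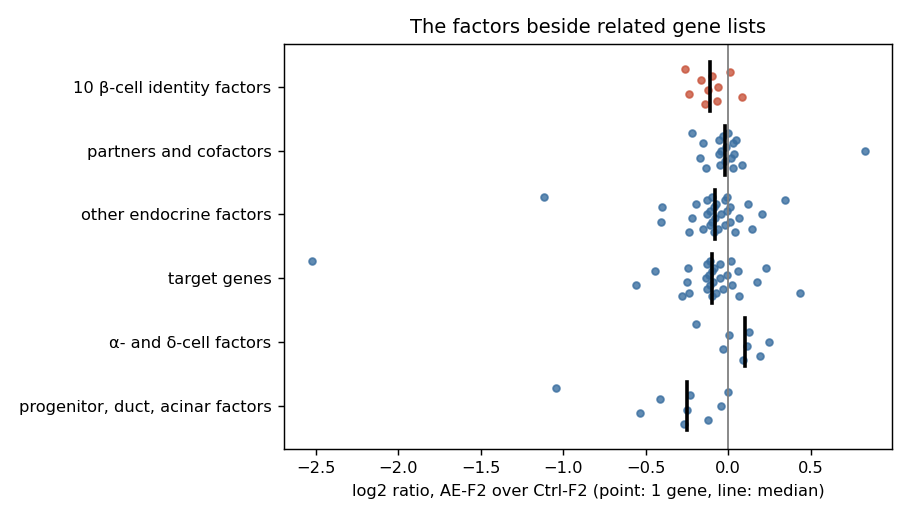
log2 ratio of AE-F2 replicate 4 over control-F2 replicate 1 for each gene kept (points) in the 10 factors and 5 related lists without the 10 factors, with the median of each list (line). The medians of the factors (-0.11), partners and cofactors (-0.02), other endocrine factors (-0.08), target genes (-0.10) and progenitor, duct and acinar factors (-0.25) lie left of 0. That of the factors of α-, δ- and other non-β endocrine cells (0.10) lies right of it.

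Several lists of cell type markers and the immediate early genes differed between the libraries, and their part in the ratios of the 10 factors was not tested. Of the 11 β-cell markers that are not among the members 9 were lower and 2 higher (median -0.09), while their summed level was alike. Of 9 α-cell markers kept 8 were higher, and their sum was 18582 CPM in the control library and 24815 in the AE library, mostly from glucagon (Gcg, 16025 and 22009 CPM). The δ-cell markers summed to 3016 and 3006 CPM and the PP markers to 3187 and 3257. Of 17 immediate early genes kept 16 were lower, with summed levels of 4776 and 2452 CPM, led by Fos, Jun and Egr1. Of 11 acinar markers kept 10 were lower (2600 and 2318 CPM, median log2 ratio -0.41). The exception, Amy2a5, was the most abundant of them (477 and 736 CPM) and narrowed the difference of the sums. The 6 of 6 B cell markers were higher (15.1 and 371 CPM, mostly Ighm and Igkc in the AE library). Mesenchymal markers were higher for 8 of 9 genes (252 and 309 CPM, median log2 ratio 0.98), with Rgs5 (170 and 180 CPM) making up most of the sum. Duct markers were higher for 5 of 7 (444 and 496), macrophage and immune markers for 5 of 7 (193 and 282), Schwann cell markers for 3 of 4 (13.0 and 15.2) and endothelial markers for 1 of 6 (554 and 551). Near 0 stood the α-cell marker Loxl4, the δ-cell marker Cckbr, the acinar factor Ptf1a and the duct channel Cftr, with at most 5 counts in either library.

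The members differ in base composition. Isl1, Rfx6 and Neurod1, with 45.7%, 44.8% and 43.6% GC in the longest transcript, had ratios of 0.01, 0.08 and -0.07, while Mafa, Insm1 and Nkx6-1, with 65.0%, 62.0% and 59.0%, had -0.10, -0.24 and -0.26. When the trend with GC content and exon length across all genes kept was removed, Nkx6-1 stood at -0.22, Pdx1 at -0.27, Neurod1 at -0.23, Pax6 at -0.19, Foxa2 at -0.17, Insm1 at -0.11, Nkx2-2 at -0.10, Isl1 at -0.09, Rfx6 at -0.02 and Mafa at 0.10. With the trend of the abundant genes, an alternative chosen after seeing the data, Nkx6-1 stood at -0.18, Pdx1 at -0.15 and Insm1 at -0.11. Pdx1, Nkx6-1, Insm1, Pax6 and Neurod1 lay below equality in both, and the order among the 10 was not kept.

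**Figure D5:**
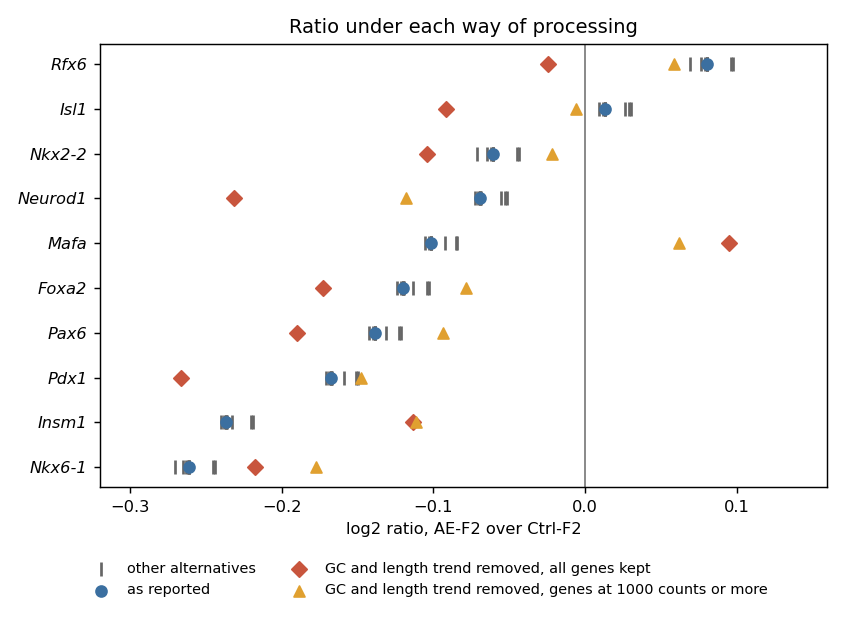
log2 ratio, AE over control library, for each factor as reported (circles), after removal of GC and length trends fitted on all genes kept (diamonds) or on the abundant genes (triangles), and under the other alternatives (ticks). Scalings move each factor little, and minimum counts could not move any. Removal of the trends puts Mafa above 0 (0.10 and 0.06) and leaves Pdx1 and Nkx6-1 below 0.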

How the data were processed

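Islet RNA of control-F2 and AE-F2 males was enriched for mRNA with oligo(dT) beads and sequenced on an Illumina instrument. The deposited values are estimated counts per gene made by the authors, 1 file per library, not scaled for depth or gene length. The submitters' processing notes name Bowtie2, RSEM and DESeq2, whereas the methods of the paper name HISAT2. The genome build, the annotation and the use of strand are not given in the sources used here.

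The estimated counts were rounded and scaled with TMM factors (edgeR 4.0.16, R 4.3.3). Genes averaging 10 counts or more were kept, and 0.5 counts were added for log2 ratios. Clopper-Pearson and Wilson intervals (95%) and conditional odds ratios came from scipy 1.17.1. Reads are not independent molecules, so intervals cover counting error only. Depths of 16285888 and 21278513 counts gave the members intervals of at most 0.09 log2 units to each side. Symbols, lengths and GC content were taken from GENCODE M21, and older symbols (Ero1b, Oga, Tmem27) from RefSeq. Start-site regions came from RefSeq on GRCm38.p6, and 8 of the 10 members had an entry.

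All 10 members were named. Of each other list the 4 most abundant genes could be named, and of partners, other factors and targets also the 3 largest differences among genes averaging 100 counts or more. Genes given as near 0 (Ptf1a, Onecut1, Rbpjl, Loxl4, Cckbr and Cftr) were chosen after their values were seen. Members and lists were chosen with earlier results of these data known. Single values of some genes of the lists are not reported here. No between-group test was made.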

Additional observations from a re-analysis of the deposited data

How the results depend on the processing

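Under 11 alternatives, 1 of them (the trend of genes averaging 1000 counts or more) chosen after seeing the data, the median log2 ratio of the 10 members ran from -0.14 to -0.09, and 8 or 9 members were lower in the AE-F2 library. Between 5 and 8 intervals lay below equality. The number above equality went from 0 to 1 with upper quartile scaling and with totals without Ins1, Ins2, Gcg and the mitochondrial genes (Rfx6 in both), and to 1 with either GC and length trend removed (Mafa in both). Mafa reversed to 0.10 (all genes kept) and 0.062 (abundant genes), with the cause not tested. The GC and length trend of all genes kept added intervals below equality for Nkx2-2 and Isl1 and lost that of Mafa, that of the abundant genes lost Foxa2 and Mafa, and 27 pairs with a shifted count ratio became 23 and 19 (alternatives also chosen after seeing the data). Of 110 values of single members, 100 stayed within their counting interval. All values that left it, 8 moved and 2 reversed, came from removal of a GC and length trend. A scaling shifts all members by nearly the same amount. Neurod1 took in equality under upper quartile scaling, under totals without insulin, glucagon and mitochondrial genes and with the AE-F2 counts thinned to the control-F2 total. The minimum count and the pseudocount changed no count of members. For the minimum count this was fixed in advance, since every member averaged at least 1889 counts. The pseudocount does not enter the intervals. No paired analysis was possible because only 1 library per group was analysed, and for the same reason no replicate could be left out. With 1 library per group the variation between animals is unknown, and at this depth a difference under the counting interval, as for Isl1, was not detectable.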
